A study of Mus musculus with 11 samples.

Results

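The 10 genes of calcium handling in cardiomyocytes were followed in the heart: Cacna1c, Jph2, Ryr2, Casq2, Trdn, Asph, Atp2a2, Pln, Sln and Slc8a1. They were chosen by name, with earlier results of these data known. Identifiers of the count table were matched to gene symbols, and all 10 had a row among its 22608 genes. RNA came from heart, labelled as ventricle, of 11 male mice aged 8 to 16 weeks. WT VEH were 2 wild-type mice given vehicle, WT JZL184 were 3 wild-type mice given JZL184, CD VEH were 3 mice with the complete deletion (CD) given vehicle, and CD JZL184 were 3 CD mice given JZL184. CD mice carry in every cell, on 1 of their copies of chromosome 5, a deletion from Gtf2i to Fkbp6, the mouse counterpart of the region lost in Williams–Beuren syndrome, so they model the heterozygous loss of many genes at once. JZL184, an irreversible inhibitor of monoacylglycerol lipase, which breaks down the endocannabinoid 2-AG, was injected at 8 mg/kg for 10 days. The treatment field of the labels calls the 5 control mice untreated, while their titles give vehicle. A mouse is named here by its group and the letter in its column name. None of the 10 genes lies in the deletion, and Atp2a2, which is also on chromosome 5, starts 11.7 Mb away from it.

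In each heartbeat, calcium that enters a cardiomyocyte through L-type channels at the T-tubules opens the ryanodine receptors of the facing sarcoplasmic reticulum, and the calcium released there starts contraction. Relaxation follows as the SERCA pump returns calcium to the reticulum under the brake of phospholamban, and as the sodium-calcium exchanger removes the rest across the cell membrane. Junctophilin holds both membranes together, calsequestrin binds calcium in the reticulum, and triadin and junctin anchor it to the release channel.

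Each mouse gave between 69660329 and 92251550 estimated counts, of which the mitochondrial genome took 36.4% to 46.6%. Levels are given as CPM (counts relative to the TMM-scaled library size), where 3 counts correspond to 0.0325 to 0.0431 CPM, a floor that covers counting error only. Of the 10 genes, 9 passed the filter on low counts (an average log2 CPM of at least 1) and Sln did not. The markers of ventricular cardiomyocytes were abundant in every mouse, with a summed level of 40583 CPM or more over 12 genes. The atrial marker Bmp10 was at 0 in mice of 3 groups, but the 6 atrial markers summed to 86.5 to 247 CPM, mostly from Nppa and Kcnj3. The skeletal muscle markers summed to 19.1 CPM or less. Gtf2i, inside the deletion, lay between 51.2 and 68.2 CPM in CD mice and between 95.2 and 129 CPM in WT mice, which checks the genotype labels but not the treatment labels.

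The start regions of 6 of the 10 genes were in the RefSeq promoter table (GRCm38.p6), and 4 of them had a single start: Ryr2 and Slc8a1, which differed between groups, and Casq2 and Pln, whose fold-changes did not pass the test in any comparison. The 250 bases before each start are printed below, 5′ to 3′ on the strand of the gene, to set genes that passed the test beside genes that did not. Capitals mark matches on either strand to the TATA box, the GC box, the M-CAT motif, a GATA site, the MEF2 motif or the CArG box. The last 3 of these were added after the sequences had been seen.
Ryr2 (chr13:12106946-12107195, minus strand): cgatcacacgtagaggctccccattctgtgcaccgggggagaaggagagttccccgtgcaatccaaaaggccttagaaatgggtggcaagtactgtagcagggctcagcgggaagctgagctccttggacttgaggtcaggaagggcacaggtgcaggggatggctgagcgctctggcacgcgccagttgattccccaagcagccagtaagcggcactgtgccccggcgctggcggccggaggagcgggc
Slc8a1 (chr17:81738388-81738637, minus strand): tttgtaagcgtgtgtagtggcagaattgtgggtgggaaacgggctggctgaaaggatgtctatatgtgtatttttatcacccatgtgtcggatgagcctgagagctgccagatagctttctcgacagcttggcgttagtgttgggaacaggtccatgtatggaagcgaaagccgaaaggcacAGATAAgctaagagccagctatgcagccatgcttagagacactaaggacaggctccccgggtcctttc
Casq2 (chr3:102086165-102086414, plus strand): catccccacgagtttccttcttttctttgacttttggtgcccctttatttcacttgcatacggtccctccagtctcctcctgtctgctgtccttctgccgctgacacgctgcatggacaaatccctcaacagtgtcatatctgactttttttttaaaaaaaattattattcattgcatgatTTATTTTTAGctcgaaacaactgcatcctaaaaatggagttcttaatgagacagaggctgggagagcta
Pln (chr10:53337436-53337685, plus strand): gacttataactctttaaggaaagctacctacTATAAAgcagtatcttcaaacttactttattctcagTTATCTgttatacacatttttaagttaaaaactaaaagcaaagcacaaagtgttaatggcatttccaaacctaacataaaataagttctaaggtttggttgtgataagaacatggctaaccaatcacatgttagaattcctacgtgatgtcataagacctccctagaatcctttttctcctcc
Ryr2 held none of the motifs. Slc8a1 held 1 GATA site, AGATAA, 68 bases before its start, a motif that 9.99% of the 32851 promoter windows of the same length hold. Casq2 held 1 MEF2 match, 69 bases before its start, against 1.69% of windows. Pln held a match to the TATA box sequence, TATAAA, 219 bases before its start (12.4% of windows) and a GATA site read on the other strand 183 bases before it. Matches were sought over the whole window, with no limit on position. The GC box GGGCGG, found in 32.7% of windows, was in none of these 4, but once before each start of Jph2 and 6 times, 5 of them overlapping, before 1 of the 3 starts of Cacna1c. The M-CAT motif CATTCC (12.6% of windows) and the CArG box (1.47%) were in none of the member windows. The GC content of the window was 63.2% for Ryr2, 50.4% for Slc8a1, 41.6% for Casq2 and 32.8% for Pln, beside a median of 52.4% over all windows.

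Per kb of the longest annotated transcript, the SERCA pump gene Atp2a2 and its inhibitor Pln were the most abundant members, more than any other by a wide margin. In WT VEH, Atp2a2 averaged 2254 CPM per kb and Pln 2151, followed by Casq2 at 323, Jph2 at 87.2, Ryr2 at 78.7, Trdn at 52.8, Asph at 29.3, Cacna1c at 15.2 and Slc8a1 at 7.37. Over the 11 mice the ranges of neighbours in this order overlapped for Atp2a2 and Pln, for Jph2 and Ryr2, for Ryr2 and Trdn, and for Cacna1c and Slc8a1. With the length of all exons joined in place of the longest transcript, Pln ranked above Atp2a2 in WT VEH, while in CD JZL184 its median (1723 CPM per kb) lay below that of Atp2a2 (1833). Sln, which encodes sarcolipin, the SERCA inhibitor of atrial and skeletal muscle, stood far below the rest. Its counts were 13 and 0 in WT VEH, 3, 0 and 9 in WT JZL184, 0, 4 and 0 in CD VEH and 0, 3 and 3 in CD JZL184. The Sln counts were at or near the floor in all 4 groups, and no difference in Sln was detectable at this depth.

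**Figure D1:**
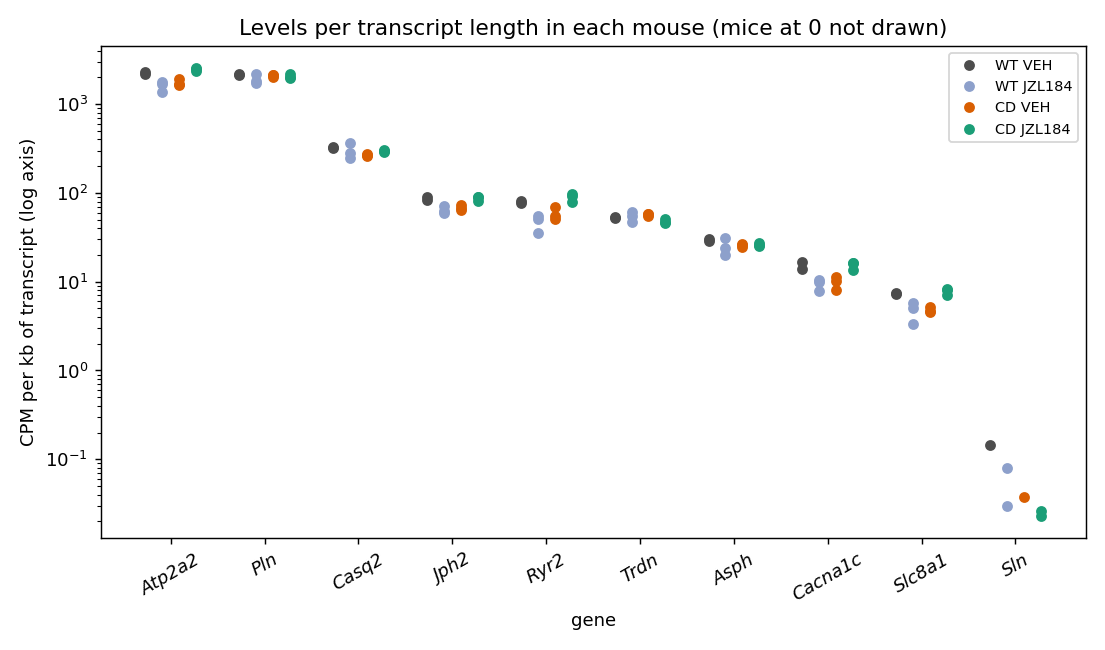
Level of each gene per kb of its longest annotated transcript (vertical axis, CPM per kb, log scale) in each of 11 mice (points), by group (colours), ordered by the WT VEH mean. Atp2a2 and Pln lie highest, at 1384 to 2535 and 1743 to 2176 CPM per kb, and Sln lies at 0.143 or less.

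Between CD VEH and WT VEH, transcripts for the L-type channel, the exchanger, the SERCA pump and junctophilin were lower in CD mice. By edgeR's quasi-likelihood test, 4 of the 9 tested members were DEGs (adjusted p under 0.05), all lower, where 15.4% of all tested genes were lower and 15.0% higher. The median of the 9 members was a log2 fold-change of -0.37, while that of all tested genes was 0.01. Between CD JZL184 and CD VEH, 5 members were higher and 1 was lower (background 16.8% higher and 17.0% lower, member median 0.36). Between WT JZL184 and WT VEH, 5 members were lower and 0 were higher (background 14.0% lower and 15.4% higher, member median -0.45). Counted by overlap alone, 7 members were lower and 1 higher in every CD VEH mouse than in both WT VEH mice (background 31.5% lower and 32.5% higher), 6 were higher and 1 lower in CD JZL184 than in CD VEH (27.2% and 27.3%), and 5 were lower and 0 higher in WT JZL184 than in WT VEH (27.3% and 27.4%). These comparisons share mice: CD VEH enters the first and the second, and WT VEH the first and the third, so each is reported by its own values.

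The entry channel and the coupling protein of the dyad fell and rose by group. Cacna1c, the pore-forming subunit of the L-type channel, stood at 218 and 183 CPM in WT VEH, 130.1, 103 and 138 in WT JZL184, 133, 151 and 106 in CD VEH and 212, 179.6 and 215 in CD JZL184. Every WT VEH and CD JZL184 mouse was above every mouse of the other groups. The log2 fold-change was -0.63 ± 0.15, adjusted p = 0.0123 between CD VEH and WT VEH, 0.64 ± 0.14, adjusted p = 0.00641 between CD JZL184 and CD VEH, and -0.69 ± 0.15, adjusted p = 0.00850 between WT JZL184 and WT VEH. Jph2, junctophilin 2, showed 354 and 379.8 CPM in WT VEH, 296, 248 and 264 in WT JZL184, 269, 304 and 281 in CD VEH and 338, 380.4 and 378 in CD JZL184. Again WT VEH and CD JZL184 lay wholly above the other groups. The log2 fold-changes of Jph2, in the same order of comparisons, were -0.37 ± 0.09, adjusted p = 0.0142, then 0.36 ± 0.08, adjusted p = 0.00855, and -0.45 ± 0.09, adjusted p = 0.00681. After scaling to the summed cardiomyocyte markers, Jph2 was no longer called in any of these 3 comparisons (adjusted p of 0.208, 0.0741 and 0.104), and its log2 fold-change between CD VEH and WT VEH was -0.15. Under the same scaling that of Cacna1c, the larger before scaling, was -0.42 and stayed called, as in the other 2 comparisons.

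**Figure D2:**
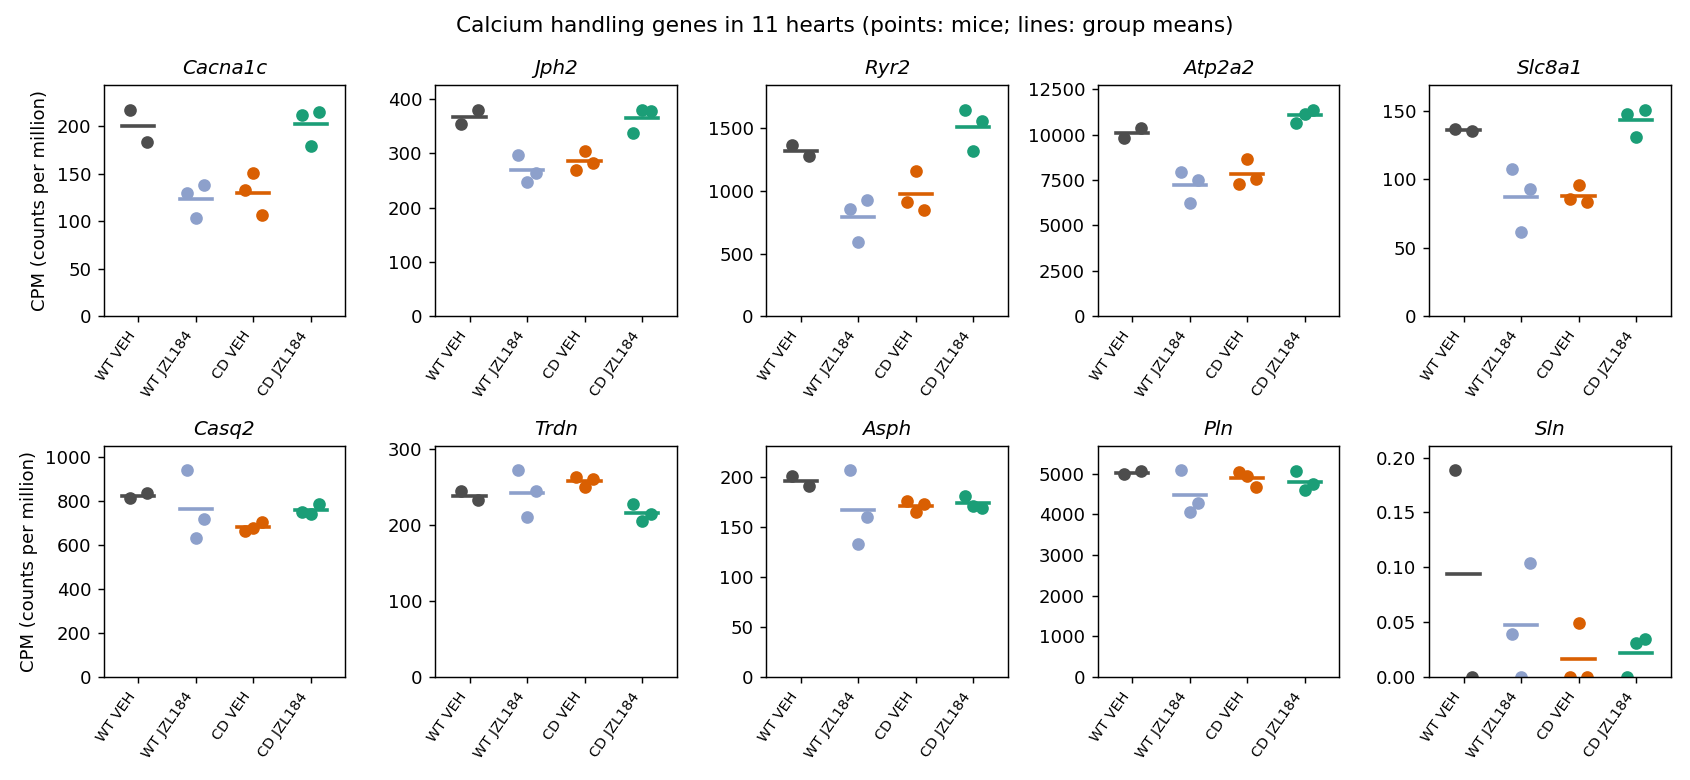
CPM of each member (vertical axes, each from 0) in the 4 groups, with a point per mouse and a line at the group mean. Cacna1c, Jph2, Atp2a2, Slc8a1 and Ryr2 are higher in the 2 WT VEH and 3 CD JZL184 mice than in the other 6, while Pln, Asph and Sln overlap in most comparisons.

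Members of the release complex did not move together. Ryr2, the cardiac ryanodine receptor, measured 1365 and 1279.8 CPM in WT VEH, 853, 597 and 925 in WT JZL184, 913, 1159 and 849 in CD VEH and 1649.8, 1321 and 1562 in CD JZL184. The WT JZL184 and CD VEH mice were below all others, and CD VEH mouse C, the highest of them, came nearest to WT VEH. Ryr2 was higher in CD JZL184 than in CD VEH (log2 fold-change 0.63 ± 0.16, adjusted p = 0.0123) and lower in WT JZL184 than in WT VEH (-0.74 ± 0.18, adjusted p = 0.0112). Between CD VEH and WT VEH its log2 fold-change was -0.44 ± 0.18, adjusted p = 0.0760, which did not pass with edgeR, although the groups did not overlap. With DESeq2 it passed (-0.44, adjusted p = 0.0311), as it did in edgeR with only these 2 groups in the model (adjusted p = 0.0318) and without CD VEH mouse C (-0.59, adjusted p = 0.0307), and with the length offset it was -0.12 (adjusted p = 0.538). Without CD VEH mouse E, the adjusted p of Ryr2 between CD JZL184 and CD VEH was 0.0541.

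Of the partners of Ryr2 at the reticulum membrane and in its lumen, Trdn passed the test in 1 comparison, and Casq2 and Asph passed in none. With the other groups left out of the model, Casq2 (adjusted p = 0.02095) and Asph (adjusted p = 0.0389) were lower by edgeR in CD VEH than in WT VEH. Casq2, cardiac calsequestrin, stood at 816 and 835 CPM in WT VEH, 939.6, 630.1 and 718 in WT JZL184, 662, 678 and 707 in CD VEH and 752, 740.4 and 788 in CD JZL184. CD VEH lay below both WT VEH and CD JZL184 without overlap, but the WT JZL184 mice spanned all other groups, and no log2 fold-change of Casq2 passed the test (-0.27 ± 0.13, adjusted p = 0.127 for CD VEH against WT VEH). Trdn, triadin, had 244 and 233 CPM in WT VEH, 272, 210.1 and 245 in WT JZL184, 262, 249 and 261 in CD VEH and 228, 205 and 214 in CD JZL184. It was the member that was lower in CD JZL184 than in CD VEH (-0.25 ± 0.09, adjusted p = 0.0404), and its CD VEH mice lay above the WT VEH mice (0.11 ± 0.10, adjusted p = 0.398, not called). That call was lost when any 1 of the 6 mice compared was left out, with no filter on low counts, with a minimum of 10 counts in every mouse and with an offset for GC content. Asph, whose locus makes junctin as well as the hydroxylase aspartyl β-hydroxylase and junctate, read 201 and 191 CPM in WT VEH, 207, 133 and 160.4 in WT JZL184, 176, 165 and 173 in CD VEH and 181, 171 and 169 in CD JZL184. Its groups overlapped between CD JZL184 and CD VEH, and no comparison passed (-0.20 ± 0.13, adjusted p = 0.279 for CD VEH against WT VEH). Gene counts cannot say which of the Asph products was measured, and Asph shares 2302 exonic bases with Clvs1 on the other strand.

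In uptake, the pump changed and its inhibitor did not pass the test. Atp2a2, which encodes SERCA2, measured 9842 and 10380.3 CPM in WT VEH, 7963, 6210.2 and 7481 in WT JZL184, 7284, 8643 and 7541 in CD VEH and 10641, 11149 and 11374 in CD JZL184. All CD JZL184 mice were above all WT VEH mice, and both groups were above the other 6 mice. Its log2 fold-change was -0.37 ± 0.11, adjusted p = 0.0286 between CD VEH and WT VEH, 0.50 ± 0.10, adjusted p = 0.00499 between CD JZL184 and CD VEH, and -0.49 ± 0.11, adjusted p = 0.01001 between WT JZL184 and WT VEH. Pln, phospholamban, stood at 4984 and 5056 CPM in WT VEH, 5079.8, 4068 and 4268 in WT JZL184, 5036, 4942 and 4682 in CD VEH and 5058, 4599 and 4754 in CD JZL184. The groups overlapped in all 3 comparisons, and the log2 fold-changes of Pln had 95% intervals of -0.26 to 0.18 for CD VEH against WT VEH, -0.22 to 0.17 for CD JZL184 against CD VEH and -0.38 to 0.05 for WT JZL184 against WT VEH. Pln shares 141 exonic bases with Cep85l on the other strand.

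The exchanger of the cell membrane, Slc8a1 (NCX1), moved with the channel and the pump. Per kb of its longest annotated transcript (18464 bases, the shortest coding one 2017), Slc8a1 was the least abundant tested member. It stood at 137 and 135 CPM in WT VEH, 107, 61.7 and 93.1 in WT JZL184, 85.4, 95.8 and 83.3 in CD VEH and 148, 131 and 151 in CD JZL184. No WT JZL184 or CD VEH mouse reached the lowest WT VEH or CD JZL184 mouse. The log2 fold-change of Slc8a1 was -0.63 ± 0.17, adjusted p = 0.0181 between CD VEH and WT VEH, 0.70 ± 0.15, adjusted p = 0.00656 between CD JZL184 and CD VEH, and -0.64 ± 0.17, adjusted p = 0.0170 between WT JZL184 and WT VEH. Under an offset for gene length, the CD VEH against WT VEH difference of Slc8a1 had an adjusted p of 0.169 and that of WT JZL184 against WT VEH 0.0764.

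**Figure D3:**
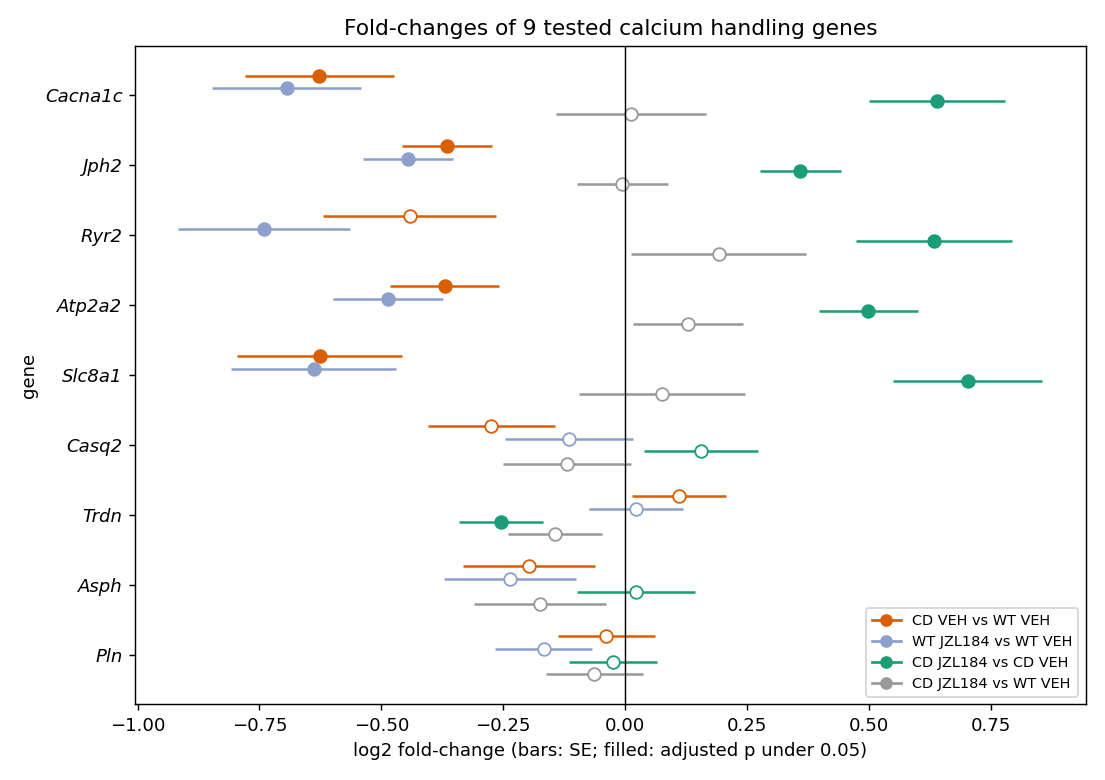
Log2 fold-change of the 9 tested members (horizontal axis, bars: SE) in 4 comparisons (colours), with filled points at an adjusted p under 0.05. Cacna1c, Jph2, Ryr2, Atp2a2 and Slc8a1 lie left of 0 for CD VEH against WT VEH and for WT JZL184 against WT VEH and right of 0 for CD JZL184 against CD VEH, and no member is filled for CD JZL184 against WT VEH.

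The calls against WT VEH rested on its 2 mice. Without WT VEH mouse C, 0 members were lower in CD VEH and 1 (Jph2) in WT JZL184, and without WT VEH mouse D, 1 (Cacna1c) was lower in each. The log2 fold-changes between CD VEH and WT VEH without mouse C or mouse D were -0.50 and -0.75 for Cacna1c, -0.41 and -0.32 for Jph2, -0.41 and -0.33 for Atp2a2, and -0.62 and -0.63 for Slc8a1. In those fits the remaining WT VEH mouse was assumed to vary like the mice of the other groups. Without CD VEH mouse A or mouse E, 2 members were lower in CD VEH than in WT VEH (Cacna1c and Jph2), and without WT JZL184 mouse A, 8 members were lower in WT JZL184, all except Trdn.

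Under JZL184, the same 5 members differed between genotypes. Ryr2 (log2 fold-change 0.93 ± 0.16), Slc8a1 (0.71 ± 0.15), Cacna1c (0.71 ± 0.14), Atp2a2 (0.61 ± 0.10) and Jph2 (0.44 ± 0.08) were higher in CD JZL184 than in WT JZL184, with adjusted p of 0.00149 to 0.00447, where 18.2% of all tested genes were higher and 20.1% lower. Their groups did not overlap, as for 23.6% of all tested genes in that direction and 24.3% in the other. The other 4 did not pass: Pln (0.10), Asph (0.06), Casq2 (-0.00465) and Trdn (-0.17). By edgeR, Pln passed as higher with the GC offset (0.20, adjusted p = 0.0459) and without WT JZL184 mouse A (0.20, adjusted p = 0.0369). Asph passed as higher without that mouse (0.24, adjusted p = 0.0291), and Trdn as lower with marker scaling and without WT JZL184 mouse B. The difference between the JZL184 effects in CD and in WT mice was tested as an interaction. It was 1.37 ± 0.24, adjusted p = 0.000795 for Ryr2, 1.34 ± 0.23, adjusted p = 0.000713 for Slc8a1, 1.33 ± 0.21, adjusted p = 0.000427 for Cacna1c, 0.99 ± 0.15, adjusted p = 0.000409 for Atp2a2 and 0.81 ± 0.12, adjusted p = 0.000423 for Jph2 on the log2 scale. The direction of each JZL184 effect rests on the treatment labels, which no measure here checks, and between CD JZL184 and WT VEH 21 of all 11319 tested genes were called. Over all tested genes 25.3% had a higher and 26.2% a lower interaction. These 5 calls held in all 20 alternatives tried, though not at the same size. With marker scaling the interaction was 0.60 for Atp2a2 and 0.42 for Jph2, and with the length offset it was 0.83 for Ryr2, 0.77 for Slc8a1 and 0.87 for Cacna1c. Pln, Casq2, Asph and Trdn did not pass in the analysis as designed.

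Between CD JZL184 and WT VEH, 0 of the 9 tested members were DEGs by edgeR, 0 had an unadjusted p under 0.05 and 0 were called by DESeq2, beside 0.186% of all tested genes called by edgeR. The log2 fold-change was 0.19 ± 0.18 for Ryr2 (95% interval -0.20 to 0.58), 0.13 ± 0.11 for Atp2a2 (-0.12 to 0.38), 0.08 ± 0.17 for Slc8a1 (-0.30 to 0.45) and 0.01 ± 0.15 for Cacna1c (-0.32 to 0.35). It was -0.01 ± 0.09 for Jph2, -0.06 ± 0.10 for Pln, -0.12 ± 0.13 for Casq2, -0.14 ± 0.10 for Trdn and -0.17 ± 0.13 for Asph. Atp2a2 was higher without overlap and Casq2, Trdn and Asph lower without overlap, where 17.7% of all tested genes were higher and 18.9% lower in that way.

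Markers of several cell types differed between these groups. The summed cardiomyocyte markers ranged from 55718 to 55750 CPM in WT VEH, 40583 to 52757 in WT JZL184, 46504 to 49637 in CD VEH and 51494 to 53995 in CD JZL184. Of the 12 markers, 4 were lower and 0 higher in CD VEH than in WT VEH, 4 higher and 1 lower in CD JZL184 than in CD VEH, and 3 lower and 0 higher in WT JZL184 than in WT VEH. The lower ones in CD VEH were Ttn (log2 fold-change -1.07), Actn2 (-0.46), Myh6 (-0.44) and Actc1 (-0.31), all genes of the sarcomere. Mean CPM of Tnni3, cardiac troponin I, was 2786 in WT VEH and 3288 in CD VEH, and that of Myl2, ventricular myosin light chain, 6493 and 7696, both not called. In a whole ventricle, fewer cardiomyocytes and less RNA of these genes per cardiomyocyte cannot be told apart. The 8 endothelial markers summed to 641 to 647 CPM in WT VEH, 945 to 1024 in WT JZL184, 818 to 924 in CD VEH and 614 to 713 in CD JZL184. Of them, 6 were higher in CD VEH than in WT VEH, 6 lower in CD JZL184 than in CD VEH and 7 higher in WT JZL184 than in WT VEH. The 7 macrophage markers summed to 253 to 268 CPM in WT VEH, 335 to 567 in WT JZL184, 335 to 435 in CD VEH and 225 to 258 in CD JZL184, and 5, 7 and 7 of them were called in the same order and directions. The 7 fibroblast markers (3, 3 and 4 called) and the 5 tested smooth muscle and pericyte markers (4, 3 and 4 called) had all their calls in the same directions. Over all tested genes, 15.0% were higher and 15.4% lower in CD VEH than in WT VEH, 16.8% and 17.0% in CD JZL184 than in CD VEH, and 15.4% and 14.0% in WT JZL184 than in WT VEH. The 5 erythroid markers reached 18832 CPM in 1 CD VEH mouse, against 5512 or less in all other mice. All 5 were called lower in CD JZL184 than in CD VEH (median log2 fold-change -2.17), and 0 for CD VEH or WT JZL184 against WT VEH. The part of these cells in the member results was not tested, beyond the scaling to cardiomyocyte markers, under which Cacna1c, Slc8a1 and Atp2a2 were higher in CD JZL184 than in CD VEH and lower in WT JZL184 than in WT VEH, as was Ryr2. Under it Cacna1c and Slc8a1 were also lower in CD VEH than in WT VEH, while Atp2a2 was no longer called there (-0.16, adjusted p = 0.136).

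The share of mitochondrial counts and transcript length moved with the groups as well. Mitochondrial genes took 39.4% and 41.2% of counts in WT VEH, 45.0% to 46.6% in WT JZL184, 43.5% to 44.7% in CD VEH and 36.4% to 40.1% in CD JZL184, and without these genes the same members were called in CD VEH against WT VEH, CD JZL184 against CD VEH and WT JZL184 against WT VEH. The tested genes were split by their longest transcript into 5 bins of equal size, and the shortest bin had a median log2 fold-change of 0.18 and the longest of -0.17 for CD VEH against WT VEH. The medians were -0.18 and 0.17 for CD JZL184 against CD VEH, and 0.13 and -0.15 for WT JZL184 against WT VEH. The longest transcripts of Slc8a1 (18464 bases), Ryr2 (16814) and Cacna1c (13162) are in the longest bin, as is that of Asph (6694), which was not called. Atp2a2 (4486), Trdn (4514) and Jph2 (4211) are in the bin before it, and Casq2 (2556) and Pln (2334) in the second shortest. With an offset for gene length, the log2 fold-changes of the 5 members between CD JZL184 and CD VEH stayed called but were smaller, at 0.35 for Ryr2, 0.40 for Slc8a1, 0.39 for Cacna1c, 0.45 for Atp2a2 and 0.32 for Jph2. For CD VEH against WT VEH, 2 of 4 stayed called (Cacna1c at -0.35 and Jph2 at -0.33), while Atp2a2 was -0.32 and Slc8a1 -0.28. For WT JZL184 against WT VEH, 4 of 5 stayed called (-0.43 to -0.48), and Slc8a1 did not (-0.36, adjusted p of 0.0764 by edgeR).

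Ratios within a mouse, which do not depend on scaling between libraries, set partners of the cycle against each other. They had no length offset, although fold-changes moved with transcript length and partners differ in it (Trdn 4514 and Ryr2 16814 bases). Pln counted against Atp2a2, inhibitor against pump, was 0.506 and 0.487 in WT VEH, 0.638, 0.655 and 0.571 in WT JZL184, 0.691, 0.572 and 0.621 in CD VEH and 0.475, 0.412 and 0.418 in CD JZL184 as a ratio of CPM. It was highest in WT JZL184 and CD VEH, lowest in CD JZL184, and did not overlap between these and WT VEH. Per kb of transcript the median ratio of Pln to Atp2a2 was 0.955 in WT VEH, 1.23 in WT JZL184, 1.19 in CD VEH and 0.803 in CD JZL184. The mean log2 ratio differed by 0.33 between CD VEH and WT VEH, by -0.53 between CD JZL184 and CD VEH, and by 0.32 between WT JZL184 and WT VEH.

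Trdn against Ryr2 showed the widest differences of the 5 ratios. It was 0.179 and 0.182 in WT VEH, 0.318, 0.352 and 0.265 in WT JZL184, 0.288, 0.215 and 0.307 in CD VEH and 0.138, 0.155 and 0.137 in CD JZL184. No CD JZL184 mouse reached the lowest mouse of any other group, and no WT VEH mouse reached CD VEH or WT JZL184. The mean log2 ratio of Trdn to Ryr2 was 0.57 higher in CD VEH than in WT VEH, and the difference was -0.90 for CD JZL184 against CD VEH and 0.78 for WT JZL184 against WT VEH. Casq2 against Ryr2 differed by -0.49 between CD JZL184 and CD VEH and by 0.63 between WT JZL184 and WT VEH, without overlap, and its groups overlapped between CD VEH and WT VEH. Slc8a1 against Atp2a2 differed by -0.26 and 0.20 between CD VEH and WT VEH and between CD JZL184 and CD VEH, and Jph2 against Cacna1c overlapped in all comparisons. Exact two-sided permutation tests were run on 25 differences of these ratios. The smallest p they allow is 0.1 for 3 against 3 mice and 0.2 for 2 against 3, so none could pass 0.05, and the lowest adjusted p was 0.294.

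**Figure D4:**
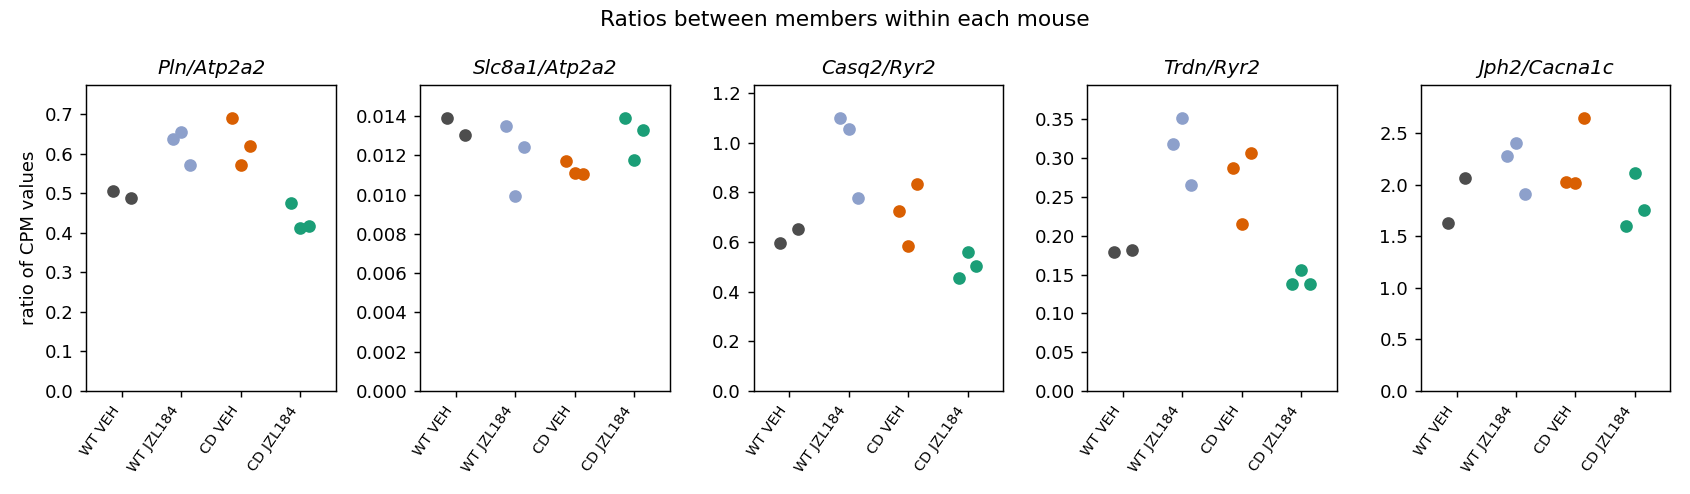
Ratios of CPM between members within each mouse (vertical axes, each from 0, no unit), with a point per mouse in the 4 groups. The ratio of Pln to Atp2a2 lies at 0.571 to 0.691 in the 6 WT JZL184 and CD VEH mice, above the 0.412 to 0.506 of the WT VEH and CD JZL184 mice.

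Over the 11 mice, the 5 members that moved, a grouping made after their values were seen, followed each other closely. On the log2 CPM scale, Pearson's r of the 10 pairs among Cacna1c, Jph2, Ryr2, Atp2a2 and Slc8a1 lay between 0.87 and 0.97, and that of the 6 pairs among Casq2, Trdn, Asph and Pln between 0.22 and 0.85. After the group means were taken out, the order was turned. The median r was then 0.74 for the first pairs and 0.86 for the second, with the highest for Trdn and Asph (0.94). Casq2, Trdn, Asph and Pln spread most within WT JZL184, where mouse A was highest and mouse B lowest (Asph 7.69 and 7.06 log2 CPM). The r of the second pairs within groups therefore leans on those mice. For all 101862 pairings of a member with another tested gene the median r was 0.00 over the mice and -0.03 within groups. Both genes of a pair are read from the same libraries with the same scaling, so these values describe the 11 hearts and have no test. The gene most like Cacna1c was Gga2 (r = 0.990), and the others were Xpnpep3 for Jph2 (0.982), Mthfd1 for Ryr2 (0.988), Klhl30 for Atp2a2 (0.987), Lnpep for Slc8a1 (0.991), Ldah for Casq2 (0.965), Zfp131 for Trdn (0.952), Cdc27 for Asph (0.968) and Bche for Pln (0.935). By Spearman's rho another gene came first for each member except Casq2. Between 404 and 686 of 11318 genes had an r over 0.9 with Cacna1c, Jph2, Ryr2, Atp2a2 or Slc8a1, and between 17 and 69 with Casq2, Trdn, Asph or Pln.

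The other genes of calcium cycling were taken from 12 lists by role, with 78 of 97 genes tested. Of these, 25 were lower and 11 higher in CD VEH than in WT VEH (median log2 fold-change -0.16), 23 higher and 9 lower in CD JZL184 than in CD VEH (0.11), and 24 lower and 12 higher in WT JZL184 than in WT VEH (-0.14). Over all tested genes the shares were 15.4% lower and 15.0% higher, 16.8% higher and 17.0% lower, and 14.0% lower and 15.4% higher in the same order. The partners of Cacna1c in the channel, Cacnb2 (-0.65 for CD VEH against WT VEH, 0.38 for CD JZL184 against CD VEH, -0.57 for WT JZL184 against WT VEH) and Cacna2d1 (-0.49, 0.42 and -0.62), were called in all 3 comparisons in the direction of Cacna1c. Cacnb3, another β subunit, was called the other way for CD JZL184 against CD VEH (-0.42) and WT JZL184 against WT VEH (0.62), and Cacnb1 and Rrad, an inhibitor of the channel, were not called. Of the T-type channels, Cacna1h was lower in CD VEH (-0.58) and higher in CD JZL184 (0.65). Cacna1g was not called in the 3 comparisons, although its log2 fold-changes were -0.68, 0.62 and -0.74. Both were called higher in CD JZL184 than in WT JZL184 and in the interaction.

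Of 7 dyad and T-tubule genes, 2 were higher and 2 lower in CD VEH than in WT VEH. Speg, a kinase that acts on junctophilin and SERCA2, and Cmya5, a dyad scaffold, took the direction of Jph2. Speg changed by -0.65, 0.55 and -0.58 in the 3 comparisons in the order above and Cmya5 by -0.50, 0.60 and -0.66. Jph1 passed for CD JZL184 against CD VEH (0.45) and WT JZL184 against WT VEH (-0.31). Bin1, which shapes T-tubules, was higher in CD VEH than in WT VEH (0.44) and in WT JZL184 than in WT VEH (0.57), and Tcap, telethonin, was higher in CD VEH than in WT VEH (0.88). Bin1 and Tcap were chosen after their values were seen. Among 11 partners of the release channel 4 were higher and 2 lower in CD VEH than in WT VEH, beside 15.0% and 15.4% of all tested genes. Calm2, a calmodulin gene, and Sri, sorcin, which inhibits the release channel, went against Ryr2. Calm2 changed by 0.40, -0.43 and 0.34, Sri by 0.37, -0.42 and 0.42, while Tmem38b, a TRIC channel of the reticulum, was lower in CD VEH (-0.42). Of the inositol trisphosphate receptors, which release calcium by another route, Itpr2 was higher in WT JZL184 than in WT VEH (0.32), and Itpr1 and Itpr3 were not called.

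In the list of kinases, phosphatases and anchors that act on these proteins, all calls lay in the direction of Cacna1c. Of 17 genes, 10 were lower and 0 higher in CD VEH than in WT VEH, 8 higher and 0 lower in CD JZL184 than in CD VEH, and 11 lower and 0 higher in WT JZL184 than in WT VEH. Over all tested genes, 15.4% were lower and 15.0% higher, 16.8% higher and 17.0% lower, and 14.0% lower and 15.4% higher in these comparisons. Prkaca, the catalytic subunit of protein kinase A, which relieves the brake of phospholamban, changed by -0.32, 0.35 and -0.33. Camk2g, a calmodulin-dependent kinase, changed by -0.36, 0.38 and -0.38, and Camk2b by -0.65 and 0.27 in the first 2. Atp1b1, a β subunit of the sodium pump, changed by -0.32, 0.26 and -0.36 and moved like Slc8a1, which depends on the sodium gradient. Fxyd1, phospholemman, an inhibitor of the sodium pump, was higher in CD VEH than in WT VEH (0.19) and lower in CD JZL184 than in CD VEH (-0.20).

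Calls among the other routes of removal and entry went in both directions. Atp2b4, a calcium pump of the cell membrane, was higher in CD VEH than in WT VEH (0.35), lower in CD JZL184 than in CD VEH (-0.30) and higher in WT JZL184 than in WT VEH (0.49), and Atp2b1 was not called. Atp2a3, another SERCA, was higher in WT JZL184 (0.69), and Hax1, a partner of phospholamban, was lower in CD JZL184 than in CD VEH (-0.19). Of the SERCA regulators, 4 of 8 listed genes had no row under their symbol. Stim2, a sensor of store-operated entry, changed by 0.33, -0.25 and 0.51, and was the single called gene of that list in the first 2 comparisons. In mitochondria, Mcu, the uniporter pore (-0.23, 0.23 and -0.21), and its regulator Mcur1 (-0.30, 0.25 and -0.28) took the direction of Atp2a2, and Slc8b1, the mitochondrial sodium-calcium exchanger, the other (0.38 and 0.46 against WT VEH). The calcineurin subunits Ppp3cb (-0.33, 0.22 and -0.40) and Ppp3r1 (-0.32, 0.19 and -0.32) followed the members, and Myoz2, calsarcin 1, which binds calcineurin, was higher in CD VEH (0.33) and lower in CD JZL184 (-0.41).

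**Figure D5:**
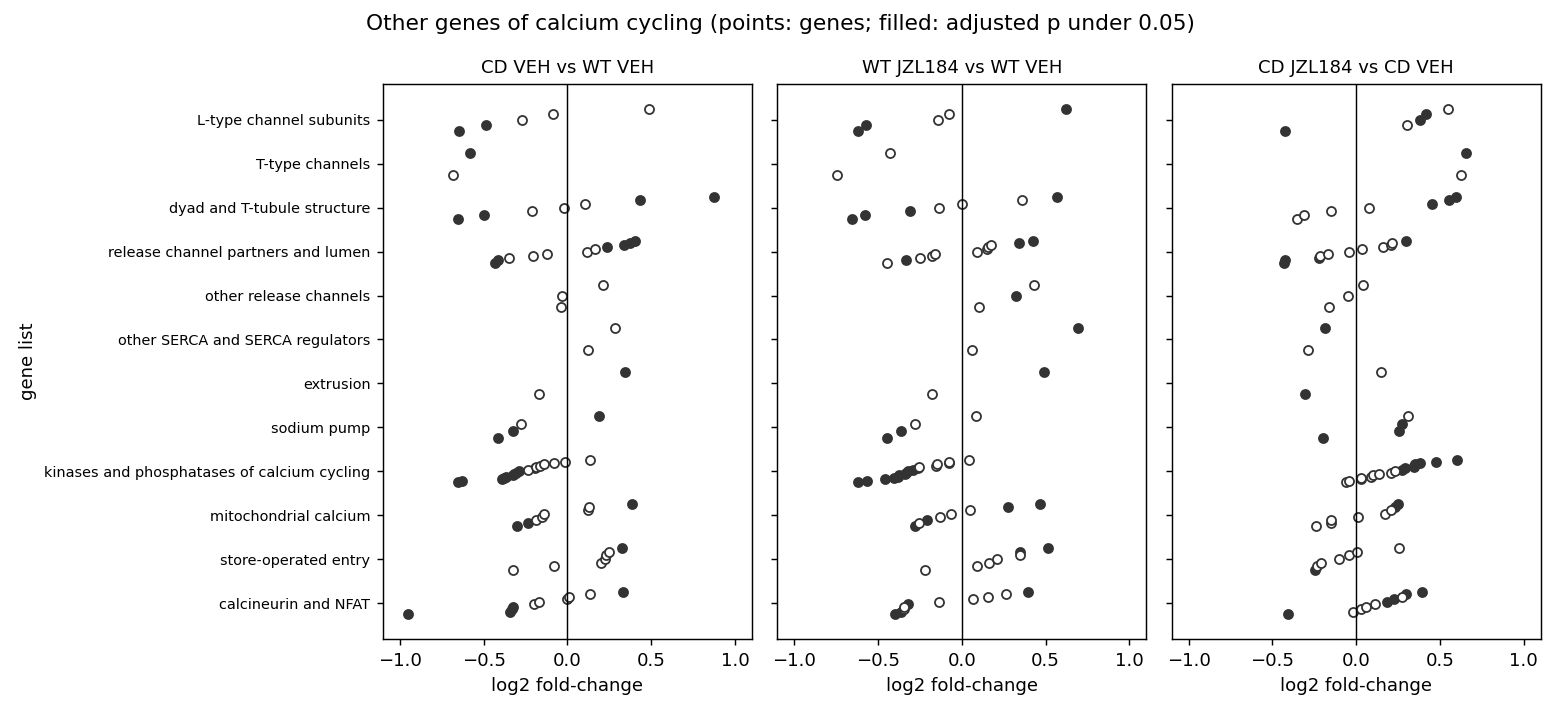
Log2 fold-change (horizontal axes) of the 78 tested genes of 12 other calcium cycling lists (rows), with a point per gene and filled points at an adjusted p under 0.05, in 3 comparisons (panels). The filled points of the kinase and phosphatase list all lie left of 0 in the first and second panels (10 and 11 genes) and right of 0 in the third (8 genes).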

How the data were processed

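The authors quantified HiSeq 3000 reads of the 11 hearts using Salmon 0.7.2 and the annotation of Ensembl release 85 (mm10), and summed transcripts to genes with tximport 1.2.0. The values deposited are estimated counts, not normalized. Column names gave the group and a letter; 0 columns lacked a group. Strand use in counting is not given in the sources used here.

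Estimated counts were rounded and tested with edgeR 4.0.16 (R 4.3.3; TMM factors, quasi-likelihood test, all 4 groups in a single model, no covariate). Genes averaging 1 log2 CPM or more were tested (11319), and p-values were adjusted by Benjamini-Hochberg over all of them. The common biological coefficient of variation was 9.13%. Each mouse was a replicate. Log2 CPM for correlations had a prior count of 2. Lengths, positions and overlaps came from GENCODE mouse release 21, which matched 22315 of 22608 genes. Ratios were tested with exact permutation in scipy 1.17.1. Named genes were the 10 members, all tested genes of lists with 5 or fewer, up to 3 per longer list with the lowest adjusted p in CD VEH against WT VEH or CD JZL184 against CD VEH, and the gene most correlated with each member. Of the genes this rule names, 2 are not reported here. The members and lists were chosen with earlier results of these data known, so the shares of all tested genes beside them are a reference, not a test. Alternatives were DESeq2 1.42.0, RLE and upper quartile scaling, other count filters, only the compared groups, offsets for length and GC content (loess, span 0.5), no mitochondrial genes, scaling to cardiomyocyte markers, leaving out each mouse and an adjusted p under 0.01. Counts were also simulated for CD VEH against WT VEH (11290 genes). On these, edgeR recovered 58% of genes changed by 0.5 on the log2 scale and 99.0% of those changed by 1, with 4.94% false calls. DESeq2 recovered 72% and 100%, with 12.4% false calls. In the simulation 100 genes were changed by 0.5 and 97 by 1, without a trend with length. The real comparison called 3440 genes and had such a trend, so these rates may not hold for it.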

Additional observations from a re-analysis of the deposited data

Results flagged for a closer look

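For 5 members the JZL184 effect differed between genotypes by a test of the difference itself (edgeR interaction term). The JZL184 effect in CD mice minus that in WT mice was 1.37 on the log2 scale for Ryr2, 1.34 for Slc8a1, 1.33 for Cacna1c, 0.99 for Atp2a2 and 0.81 for Jph2. Each gene was higher with JZL184 in CD mice and lower with JZL184 in WT mice, and 25.3% of all tested genes had a higher interaction. These directions rest on the treatment labels, which no measure here checks: between CD JZL184 and WT VEH, groups that differ in genotype and treatment, 21 of 11319 tested genes were called.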

How the results depend on the processing

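No paired analysis was possible because the columns carry letters, not the replicate numbers of the labels. Of the values of single members under the alternatives, 818 kept direction and side of the threshold, 21 newly passed, 48 no longer passed and 40 changed sign; the cause was not tested. For CD VEH against WT VEH, lower members numbered 4 as reported, 5 with DESeq2, 3 with no filter (without Atp2a2, adjusted p = 0.0609 by edgeR), 7 with no other groups in the model, 2 with the length offset, 2 with marker scaling, 0 at an adjusted p under 0.01 and 0 to 5 with a mouse left out. Higher members were 1 with marker scaling (Trdn). For CD JZL184 against CD VEH, lower members (Trdn, 1 as reported) were 0 with no filter, with at least 10 counts in every mouse, with the GC offset, at an adjusted p under 0.01 and with any mouse left out. For WT JZL184 against WT VEH, lower members were 5 as reported, 3 with no other groups in the model, 2 at an adjusted p under 0.01 and 1 to 8 with a mouse left out, and 1 was higher with marker scaling (Trdn). For CD JZL184 against WT JZL184, Trdn made 1 lower member with marker scaling and 0 to 1 with a mouse left out. The higher members there also took in Pln with the GC offset, and Pln and Asph without WT JZL184 mouse A. In the interaction Trdn made 1 lower member with upper quartile scaling, the length offset, marker scaling and without WT JZL184 mouse B. Without WT JZL184 mouse A, Casq2 (0.45, adjusted p = 0.00366) and Asph (0.45, adjusted p = 0.00623) also had a higher interaction by edgeR.

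Marker scaling moved the median log2 fold-change of all genes to 0.22 for CD VEH against WT VEH, -0.15 for CD JZL184 against CD VEH, 0.25 for WT JZL184 against WT VEH, -0.19 for CD JZL184 against WT JZL184 and -0.41 in the interaction. The share of higher calls became 90.3%, 14.1%, 96.3%, 9.93% and 9.05% in that order, so under it changes read against these medians.

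Signs changed for differences that had not passed the test. For CD VEH against WT VEH, Asph was 0.0178 with marker scaling, and Pln was 0.00412 with upper quartile scaling and 0.18 with marker scaling. For CD JZL184 against CD VEH, Asph was -0.00592 with upper quartile scaling, -0.11 with the length offset, -0.12 with marker scaling and -0.00703 to 0.0471 with a mouse left out, and Pln was 0.0430 with the length offset, 0.0689 with the GC offset and -0.0628 to 0.00598 with a mouse left out. For WT JZL184 against WT VEH, Casq2 was 0.12 with marker scaling and -0.29 to 0.00715 with a mouse left out, Trdn was -0.0634 to 0.12 with a mouse left out, and Pln was 0.0788 with marker scaling. For CD JZL184 against WT JZL184, Casq2 was 0.01003 with no filter, 0.00824 with at least 10 counts, 0.0399 with the length offset, 0.0129 with the GC offset and -0.12 to 0.17 with a mouse left out, Asph was -0.0229 with the length offset, -0.0998 with marker scaling and -0.0762 to 0.24 with a mouse left out, and Pln was -0.0725 with marker scaling. For CD JZL184 against WT VEH, Cacna1c was -0.11 to 0.14 with a mouse left out, Jph2 was 0.00887 with upper quartile scaling, 0.00411 with no filter, 0.0654 with marker scaling and -0.0549 to 0.0473 with a mouse left out, and Pln was 0.0498 with the GC offset and 0.00630 with marker scaling. In the interaction, Casq2 went from 0.27 to -0.11, Asph from 0.26 to -0.12 and Pln from 0.14 to -0.25 with marker scaling. The 2 WT VEH mice limit every comparison with that group.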
